A study of Mus musculus with 11 samples.

Results

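The genes described here were the ligands of the CSF1 receptor, Csf1 and Il34, and the colony-stimulating factor (CSF) receptor genes Csf1r, Csf2ra, Csf2rb and Csf3r. They were taken by symbol from the gene column of all 11 count files and make up 6 of the 26921 genes listed there, with 153791 of the counted transcripts in kept cells. The question was which vascular and glial cells of the mouse cortex held transcripts of the ligands and which myeloid cells held the receptors, in juvenile, adult and aged mice and in experimental autoimmune encephalomyelitis (EAE), a model of autoimmune brain inflammation.

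Single cells of myelin-depleted cerebral cortex were captured with the 10x 3′ v2 assay, in which each captured transcript carries a unique molecular identifier (UMI). All mice were C57BL/6 and, unless the study stated otherwise, female. Juvenile mice were at postnatal day 10 (4 libraries), Adult mice at 7–11 weeks (3 libraries) and Aged mice at 18 months (2 libraries), all untreated. EAE mice (2 libraries) were females of 7–11 weeks at the peak of disease, immunized with a myelin oligodendrocyte glycoprotein peptide (MOG35–55) in Complete Freund's Adjuvant and given pertussis toxin. Adult mice did not receive the adjuvant or the toxin, so the autoimmune disease and these agents cannot be told apart. Each sample pooled the cortices of 6 mice (Juvenile, Adult) or 3 mice (Aged, EAE), and libraries of a group may be repeats of 1 pool. The p-values below therefore measure the spread between these libraries, which may be technical.

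CSF1 and IL34 are secreted cytokines that bind the same receptor tyrosine kinase, CSF1R, on which microglia and most tissue macrophages depend for survival and proliferation. CSF2RA is the ligand-binding chain of the GM-CSF receptor and CSF2RB is the signalling chain that this receptor shares with the IL-3 and IL-5 receptors. CSF3R is the receptor for G-CSF, best known for driving the production of neutrophils. In the brain, neurons are known as a source of IL34 and glia as a source of CSF1, and the preparation used here removed most neurons.

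On the GRCm38 build Csf1 lies at chr3:107741048-107760469 (minus strand), Csf3r at chr4:126024550-126044440 (plus strand) and Il34 at chr8:110741829-110805924 (minus strand). Csf2rb lies at chr15:78325752-78353847 (plus strand) and Csf2ra at chr19:61223957-61228429 (minus strand). Csf2rb has a near-identical copy, Csf2rb2, 20030 bases away on the same chromosome, so the division of reads between these genes is uncertain.

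The libraries held 15755504 to 34326349 UMIs, and 50625 of 54646 barcodes passed the filters on genes and mitochondrial share. Cells were clustered without the 6 genes and their pathway list and named from markers, so each name below stands for a marker-like cluster (EC-like, microglia-like and so on). Of the kept cells, 48119 were named and 2506 (4.95%) were not, and 7 of 100 markers were not highest in their own type. Among them were Xcr1, Clec9a and Cd209a, which were at 0 in the median of the small dendritic cell (DC) group. Of the markers of monocytes and macrophages, Fn1 was highest in ECs, Arg1 in T cells and Chi3l3 in neutrophils. Libraries shared 10 to 113 cell barcodes with each other. Adult 2 and Adult 3 differed by little more than sampling noise (chi-square per degree of freedom 1.41 in ECs and 1.24 in microglia) and were summed as 1 sample, which leaves 2 Adult samples. Adult 1 stood apart from both (21.8 and 22.2 in ECs), with 49085 CPM of the choroid plexus gene Ttr in its ECs, and results that rest on it are given with and without it. The Juvenile libraries formed 2 pairs, with 1.75 and 1.96 in ECs and 1.79 and 1.37 in microglia within the pairs (1 with 2, 3 with 4) but 11.9 to 14.2 and 10.4 to 11.4 between them. They were kept as 4 samples, which may overstate their number, and with the near-identical pairs of every condition summed the Juvenile calls numbered 6 in place of 8. The Aged libraries (2.15 in ECs, 1.55 in microglia) and the EAE libraries (1.91 and 1.59) were about as alike as the Juvenile pairs. They were kept as 2 samples per group, although each group may amount to 1. Levels are in CPM, the UMIs of a gene scaled to a common total, over all UMIs of a cell type in 1 library with at least 10 such cells, and they are compared between cell types or conditions for 1 gene, not between genes.

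Csf1 was held by several cell types at similar levels, with ECs and microglia contributing most of the recovered transcripts. In ECs Csf1 was at 40.9, 44.3, 45.7 and 34.8 CPM in the Juvenile libraries and at 23.3, 40.4 and 44.9 CPM in the Adult libraries. It was at 40.6 and 35.7 CPM in the Aged libraries and at 62.3 and 71.6 CPM in the EAE libraries. Both EAE libraries lay above every other library, and Adult 1 was the lowest. The means were 41.4 ± 4.84 (SD, n = 4), 33.0 ± 13.7 (n = 2), 38.2 ± 3.47 (n = 2) and 66.9 ± 6.57 CPM (n = 2).

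Csf1 rose in ECs in EAE, with a log2 fold change of 1.13 ± 0.23 (SE) against Adult (edgeR quasi-likelihood test, adjusted p = 0.00482). A gene is called changed here at an adjusted p under 0.05 (Benjamini-Hochberg over all genes tested in that cell type), and 27.5% of all genes tested in ECs were called in this comparison. The change was also called in 19 of 19 alternatives, with log2 fold changes from 0.83 to 1.26, and the lowest of these was the value without Adult 1. The fits without Adult 1 and without either EAE library leave 1 sample in a group and take its spread from the other groups. In Juvenile ECs the value was 0.33 (adjusted p = 0.22, 43.5% of all genes called) and in Aged ECs it was 0.13 (adjusted p = 0.789, 5.3% called), and neither change was called.

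Microglia held Csf1 at 49.4, 39.6, 27.1 and 15.2 CPM in Juvenile, 32.6, 53.2 and 60.1 CPM in Adult, 42.4 and 44.7 CPM in Aged and 86.1 and 83.6 CPM in EAE libraries. Both EAE libraries again lay above every other library, while the Juvenile libraries spanned a wide range, with Juvenile 1 and 2 above 3 and 4. The log2 fold change in EAE was 1.14 ± 0.42 (SE) with an adjusted p of 0.0855, so the call was not made, although 5 of 19 alternatives made it, among them DESeq2 (adjusted p = 0.0266). Without Adult 1 the value was 0.82 with an adjusted p of 0.36.

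Astrocytes and fibroblasts held Csf1 at 15.9 to 64.2 CPM and 12.8 to 71.1 CPM, and their few cells outside the Juvenile libraries gave few UMIs (6, 4 and 1 in the astrocytes of the 3 Adult libraries). With edgeR 0 of 3 members tested were called in either cell type in any condition, as with DESeq2, and only Aged libraries had members with an unadjusted p under 0.05 (2 in astrocytes, 1 in fibroblasts). Of all genes tested, 13.7% were called in Juvenile, 0.358% in Aged and 2.15% in EAE astrocytes, and 3.18%, 0.0287% and 3.12% in the fibroblasts of these conditions. The EAE value of Csf1 in astrocytes was 1.18 with an adjusted p of 0.429. Oligodendrocytes, the myelin-forming cells, held Csf1 at 11.1, 23.2, 4.58 and 17.0 CPM in Juvenile and at 38.9, 56.3 and 57.6 CPM in Adult libraries, and these groups did not overlap. Csf1 was lower in Juvenile than in Adult oligodendrocytes with a difference of -2.14 ± 0.47 (SE) on the log2 scale (adjusted p = 0.00129), where 33.5% of all genes tested were called, and the call was kept in all 17 alternatives that gave a value. The phosphatase gene Ptprz1 was at 203.71 to 382.26 CPM in Juvenile and 5.49 to 30.3 CPM in Adult oligodendrocytes (edgeR, 3.42, adjusted p = 4.95e-07). Whether both groups held oligodendrocytes of the same stage was not tested.

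**Figure D1:**
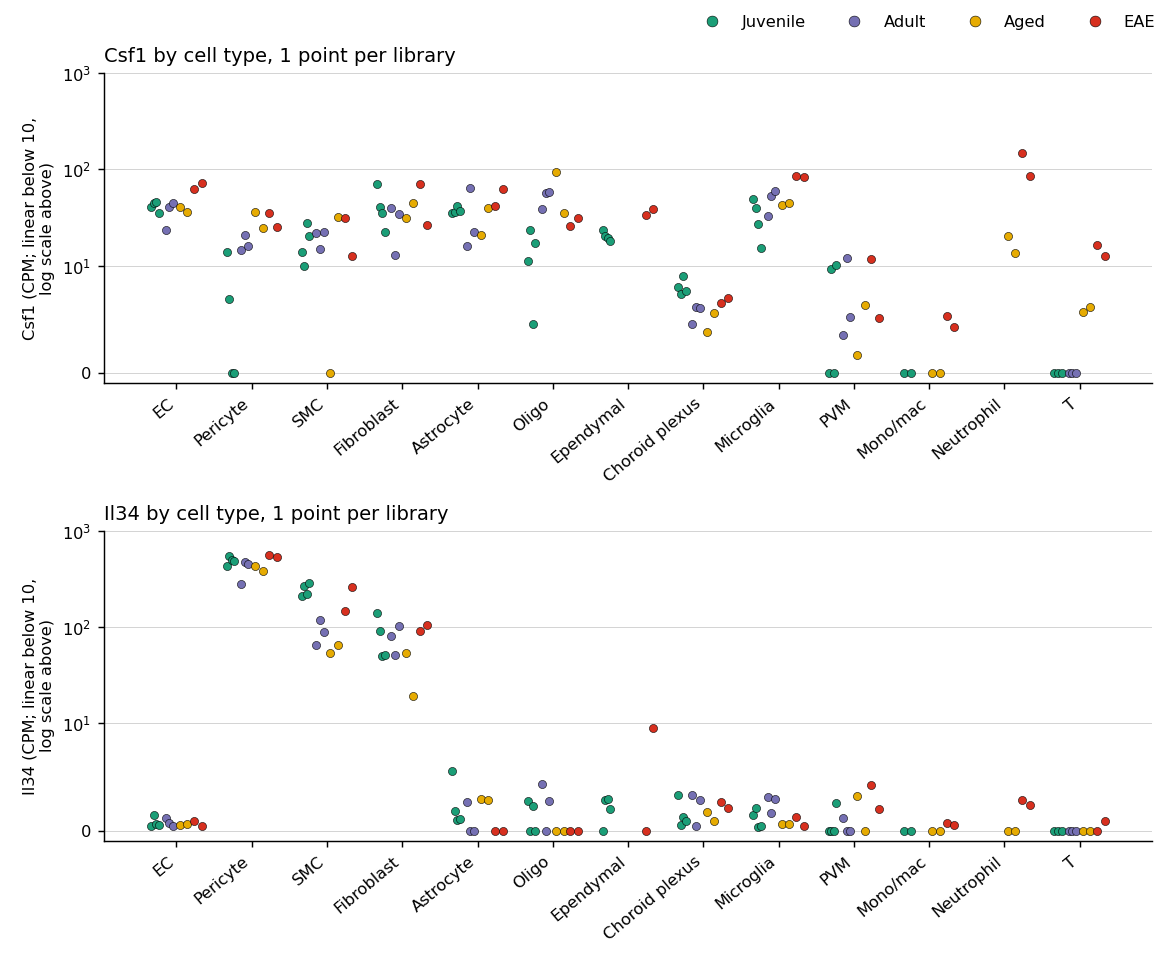
Levels of Csf1 (upper panel) and Il34 (lower panel) in CPM, on an axis that is linear below 10 and logarithmic above, for 13 cell types. Each point is 1 library, coloured by condition. Csf1 lay between about 10 and 100 CPM in ECs, fibroblasts, astrocytes and microglia, whereas Il34 reached 280.29 to 561.15 CPM in pericytes and stayed at or below 1.41 CPM in ECs.

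Compared within the same libraries, ECs held more Csf1 on average than the mural cells beside them. Pericytes held 0 to 35.9 CPM and smooth muscle cells 0 to 32.2 CPM, on at most 8 UMIs per library. The gap varied, with pericytes at 6.85 and ECs at 44.3 CPM in Juvenile 2 but at 35.9 and 40.6 CPM in Aged 1. In Adult 1 smooth muscle cells were at 21.6 CPM and ECs at 23.3 CPM. The log2 difference was 1.59 ± 0.27 (SE) against pericytes (adjusted p = 1.37e-05, 44.7% of all genes called) and 1.51 ± 0.28 against smooth muscle cells (SMCs; adjusted p = 6.64e-06, 44.3% called). It was 2.27 ± 0.15 against choroid plexus cells (adjusted p = 4.19e-09, 75.2% called) and 0.47 ± 0.15 against astrocytes (adjusted p = 0.00836, 66% called). Microglia exceeded astrocytes by 0.47 (adjusted p = 0.0411, 71.5% called), a call lost in 9 of 18 alternatives. ECs were not called different from fibroblasts (0.32, adjusted p = 0.159, 52.3% called) or from microglia (-0.13 ± 0.17, adjusted p = 0.504, 71.4% called).

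Among myeloid cells, Csf1 was a transcript of microglia and neutrophils. Microglia exceeded perivascular macrophages (PVMs) by 2.95 ± 0.25 (SE) on the log2 scale (adjusted p = 2.59e-09, 49.2% of all genes called), with PVMs at a median of 5.18 CPM over libraries. Monocytes and macrophages of the EAE libraries held only 5.32 and 4.26 CPM and were below microglia by a log2 difference of -3.73 ± 0.30 (SE) (adjusted p = 1.57e-19, 53.3% called). Neutrophils stood at 145.88 and 85.7 CPM in EAE (52 and 36 UMIs) and at 20.2 and 13.6 CPM in Aged libraries (2 UMIs each), above monocytes and macrophages by 4.98 ± 0.30 (SE) (adjusted p = 1.02e-07, 55.2% called). Neutrophils were the highest cell type for Csf1 in both EAE libraries, which were 2 of the 4 libraries with enough neutrophils.

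Within the endothelium, Csf1 was highest in a venous-side group in 8 of 10 libraries. ECs were clustered in each condition and named from markers, with venous-side ECs carrying genes such as Vwf, Nr2f2, Icam1 and Vcam1, and ECs without a clear arterial, venous, tip or dividing signature were kept as other ECs. In venous-side ECs Csf1 was at 56.1, 65.8, 90.0 and 75.0 CPM in Juvenile, 169.09 and 183.63 CPM in Adult 2 and 3, 106.23 and 70.4 CPM in Aged and 156.56 and 206.77 CPM in EAE libraries. Adult 1 had only 5 venous-side cells (0.595% of its ECs) and gave no value. The study describes Icam1, Vcam1 and Vwf as markers of a small subset of venous ECs. Venous ECs without a clear signature would be counted among the other ECs, so a gradient toward the veins was not shown.

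In arterial ECs of the same 10 libraries Csf1 lay lower, at 22.0 to 38.7 CPM in Juvenile, 23.5 and 34.2 CPM in Adult 2 and 3, 22.4 and 24.9 CPM in Aged and 34.6 and 41.5 CPM in EAE. Venous-side ECs exceeded arterial ECs in 10 of 10 libraries, with ratios from 1.86 to 7.2. Venous-side ECs were the highest subtype in 8 of these libraries, and tip cells, the migrating cells at the front of growing vessels, were the highest in the other 2 (Juvenile 1 and Juvenile 3). Tip cells were at 55.8 to 92.4 CPM and dividing ECs at 40.3 to 51.8 CPM, both in Juvenile libraries alone.

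Among EC subtypes, the clearest gap in Csf1 between EAE and Adult was in other ECs, with 50.3 and 52.4 CPM in EAE against 23.8, 35.9 and 38.9 CPM in Adult. Arterial ECs held 34.6 and 41.5 CPM in EAE against 11.3, 23.5 and 34.2 CPM in Adult, so that EAE 1 and Adult 3 were nearly equal. In Adult 1, 817 of 840 ECs were other ECs and only 18 were arterial, against 571 arterial of 2009 in Adult 2. The subtype values of Adult 1 may therefore not compare with those of Adult 2 and 3. The EAE and Adult values of venous-side ECs overlapped. Venous-side ECs were 5.8% and 5.67% of ECs in EAE, 2.84% and 2.81% in Adult 2 and 3 and 4.45% and 4.54% in Aged libraries. They were 16.3%, 16.7%, 4.89% and 5.74% in Juvenile libraries. These shares come from separate clusterings of each condition. Venous-side ECs held 35.4% or more of EC Csf1 UMIs in EAE against 25.5% and 20.9% in Adult 2 and 3. In Aged libraries they held 22.2% and 17.7%, and in Juvenile libraries 8.75% to 28.6%. These subtype values are a description without a test.

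**Figure D2:**
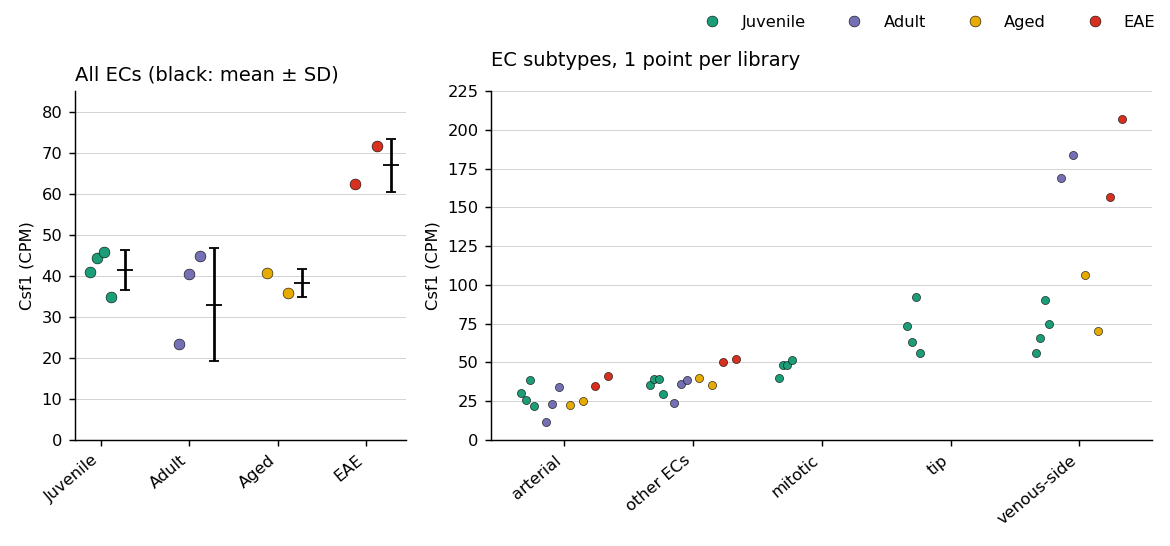
Csf1 in CPM in all ECs (left, 1 point per library, with the mean and SD in black, where Adult 2 and 3 enter the mean and SD as 1 sample) and in EC subtypes (right, 1 point per library with at least 10 cells of the subtype). Both EAE libraries lie above all others on the left, and venous-side ECs lie above arterial ECs in each of 10 libraries on the right.

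ECs held 40.7% to 74.9% of all recovered Csf1 UMIs in Adult libraries, 66.1% to 70.7% in Aged, 51.1% to 54.9% in EAE and 39.6% to 53.1% in Juvenile libraries. Microglia held 26.4% to 26.5% in EAE, where they were 15.0% to 15.7% of kept cells, and 7.77% to 21.1% in Adult libraries. EAE was not the upper end. Juvenile libraries ranged from 170 microglial and 202 EC UMIs of Csf1 in Juvenile 1 to 35 and 213 in Juvenile 4, against 353 and 681 in EAE 1. These shares describe recovered cells and depend on how many cells of each type survived dissociation. In cells thinned to 1500 UMIs each, 6.86% to 7.14% of EAE ECs and 9.93% to 10.5% of EAE microglia had a Csf1 UMI, against 2.45% to 5.15% and 2.0% to 4.83% in Adult libraries. The background was taken from monocytes and macrophages in EAE, with 0.731% to 0.801%. Other low types of the EAE libraries stood higher, with 1.01% to 1.03% of PVMs and 1.23% to 1.58% of T cells. The median UMIs per cell before thinning were 2365 in EAE ECs, 3219 in EAE microglia and 5925 in EAE monocytes and macrophages.

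**Figure D3:**
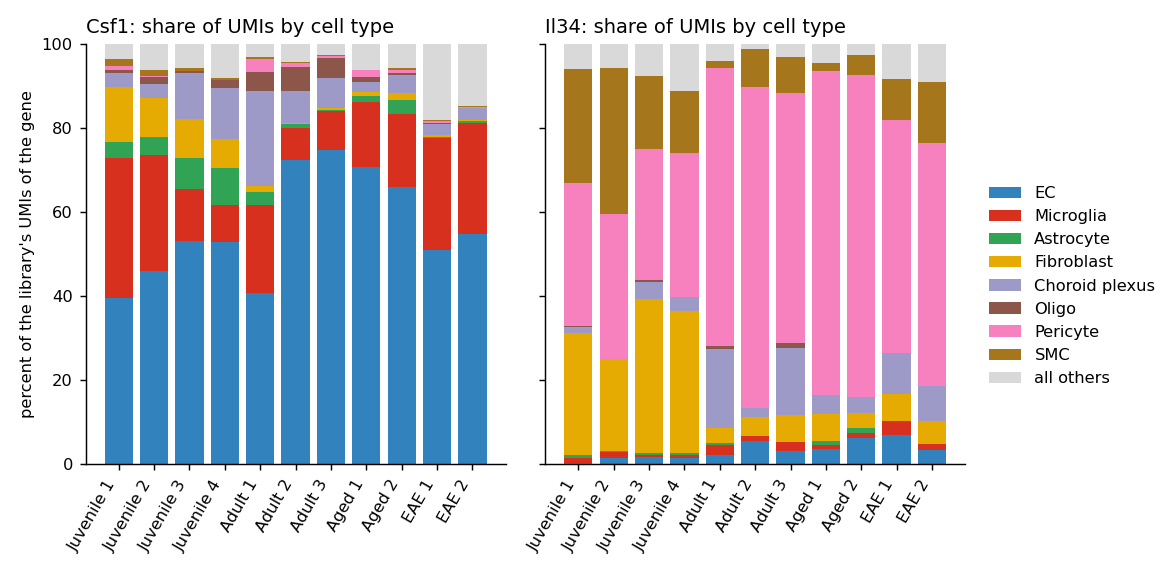
Percent of each library's Csf1 (left) and Il34 (right) UMIs that fell in each cell type, 1 bar per library, with the remaining types joined as all others. ECs held the largest part of Csf1 in all 11 libraries, and pericytes held 55.6% to 77.1% of Il34 outside the Juvenile libraries.

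Il34 was found in mural cells and fibroblasts, and pericytes were its highest cell type in 11 of 11 libraries. Pericytes held 427.08, 540.92, 492.36 and 480.76 CPM in Juvenile, 280.29, 468.53 and 448.44 CPM in Adult, 430.7 and 376.94 CPM in Aged and 561.15 and 528.44 CPM in EAE libraries. The lowest value was again that of Adult 1, and the EAE values lay above the Adult and Aged values but overlapped with the Juvenile values. With edgeR and DESeq2 no condition was called for Il34 in pericytes (unadjusted p under 0.05 in 1 of 3), where 5.39%, 26.9% and 0.0224% of all genes tested were called in EAE, Juvenile and Aged libraries. The EAE value was 0.52 ± 0.23 (SE) on the log2 scale (adjusted p = 0.198), the Juvenile value 0.27 (adjusted p = 0.315) and the Aged value 0.06 (adjusted p = 0.965). Conditions drew on different mural clusters, with 55.2% of Adult pericytes in cluster 1, 72.7% of EAE and 65.6% of Aged pericytes in cluster 0, and 60.6% and 35.2% of Juvenile pericytes in clusters 4 and 6. Within cluster 0, which also held 30.4% of Adult pericytes, Il34 pooled over libraries was at 441.9 CPM in Adult, 429.12 CPM in Aged and 786.91 CPM in EAE cells, a description without a test.

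SMCs held Il34 at 211.94, 265.98, 217.85 and 287.65 CPM in Juvenile, 64.7, 118.28 and 89.3 CPM in Adult, 53.5 and 64.4 CPM in Aged and 145.42 and 262.31 CPM in EAE libraries. Juvenile and EAE values did not overlap with Adult values, which rested on 3, 8 and 8 UMIs. Il34 was higher in Juvenile than in Adult SMCs by 1.25 ± 0.35 (SE) on the log2 scale (adjusted p = 0.0215, where 16.4% of all genes tested were called). Juvenile SMCs came from mural clusters 3 and 5 (55.6% and 38.9%) and 96.9% of Adult SMCs from mural cluster 2. Pooled over libraries, Il34 was at 155.86 CPM in Juvenile cluster 3, 360.13 CPM in Juvenile cluster 5 and 96.0 CPM in Adult cluster 2. The call was lost with DESeq2 (adjusted p = 0.0501), without Adult 1 (0.0705), without Adult 3 (0.0565) and without Juvenile 2 (0.054). The EAE value of 1.14 (adjusted p = 0.342) was not called, where 0.429% of all genes tested were.

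Fibroblasts held 139.09, 90.7, 50.1 and 51.1 CPM of Il34 in Juvenile, 80.0, 51.2 and 103.5 CPM in Adult, 54.1 and 19.3 CPM in Aged and 90.8 and 104.27 CPM in EAE libraries. These groups overlapped and no condition was called. The few neurons that remained held 48.4, 56.2, 36.1 and 17.1 CPM in Juvenile libraries and 12.7 CPM in Adult 1 (3 UMIs). They were at 0 in Adult 2, Aged 2 and both EAE libraries. There 3 counts would be 97.8, 157.94, 30.4 and 36.1 CPM, so no difference from Juvenile neurons is read from these zeros. ECs held 0.402 to 1.41 CPM, microglia 0.361 to 3.11 CPM and astrocytes 0 to 5.56 CPM.

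SMCs and fibroblasts held less Il34 than pericytes of the same libraries. SMCs were below pericytes by a log2 difference of -1.30 ± 0.17 (SE) (adjusted p = 2.64e-07, 37.3% of all genes called) and fibroblasts were below pericytes by -2.64 ± 0.19 (SE) (adjusted p = 1.11e-09, 48.4% called). SMCs lay above fibroblasts except in Adult 1, Adult 3 and Aged 1, and this pair was not tested. ECs, which share a basement membrane with pericytes, were below them by -9.08 ± 0.17 (SE) (adjusted p = 9.65e-29). Pericytes exceeded astrocytes by 7.4 ± 0.25 (SE) (adjusted p = 8.46e-19, 53.1% called). For Csf1 the difference between ECs and pericytes had the opposite direction, as given above. Pericytes were 0.84% to 6.38% of kept cells but held 59.6% to 76.4% of Il34 UMIs in Adult, 76.5% to 77.1% in Aged, 55.6% to 57.9% in EAE and 31.2% to 34.4% in Juvenile libraries. In Juvenile libraries fibroblasts held 21.7% to 36.6% and SMCs 14.8% to 34.8%. After thinning, 29.5% to 52.9% of pericytes had an Il34 UMI, against 0% to 0.407% of ECs. The median UMIs per cell before thinning ranged over the conditions from 1211 to 4267 in pericytes and from 2330 to 6067 in ECs.

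Csf1r, the receptor of both ligands, was highest in microglia in 11 of 11 libraries. Among named types, microglia were followed by PVMs and then by monocytes and macrophages. Microglia held 3433.51, 3435.47, 4557.79 and 4274.89 CPM in Juvenile, 4274.08, 4570.78 and 4490.0 CPM in Adult, 3024.3 and 3039.29 CPM in Aged and 2699.37 and 2678.29 CPM in EAE libraries. The EAE libraries were the lowest, the Aged libraries the next lowest, and neither overlapped with Adult. Juvenile 1 and 2 lay below Juvenile 3 and 4. PVMs held 1969.4, 1874.16, 2416.02 and 2771.79 CPM in Juvenile, 2002.07, 2135.75 and 2209.11 CPM in Adult, 1966.28 and 2173.31 CPM in Aged and 1432.26 and 1592.95 CPM in EAE libraries. In PVMs only the EAE libraries lay apart from Adult.

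The within-library log2 difference between microglia and PVMs was 0.69 ± 0.08 (SE) (adjusted p = 1.24e-07). Monocytes and macrophages held 338.85 to 612.35 CPM and were below microglia by -2.74 (adjusted p = 8.49e-19) and below PVMs by -2.10 (adjusted p = 6.88e-08, 44.7% of all genes called). Neutrophils held 80.7 to 162.71 CPM, below monocytes and macrophages by -1.24 (adjusted p = 0.000566), and DCs were below monocytes and macrophages by -3.99 (adjusted p = 2.68e-09, 25.2% called). After thinning, a Csf1r UMI was found in 96.2% to 100% of microglia, 84.1% to 100% of PVMs and 35.3% to 52.5% of monocytes and macrophages, against 2.73% to 11.1% of ECs.

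Csf1r was lower in EAE microglia than in Adult microglia with a difference of -0.49 ± 0.15 (SE) on the log2 scale (adjusted p = 0.0288, where 23.8% of all genes tested were called). The call held in 14 of 19 alternatives and was lost without Adult 1 (-0.51, adjusted p = 0.0741) and without either Aged or either EAE library. In Aged microglia the value was -0.52 ± 0.15 with an adjusted p of 0.0945, where 1.94% of all genes tested were called, so it was not called. In PVMs the values were -0.30 in EAE (adjusted p = 0.215, 20.1% called) and 0.03 in Aged libraries (adjusted p = 0.956, 2.04% called), and in Juvenile PVMs, where 9.47% of all genes were called, edgeR and DESeq2 called 0 of 4 members, with 1 at an unadjusted p under 0.05. EAE and Juvenile microglia came largely from clusters of their own, with cluster 0 holding 99.0% of EAE microglia and cluster 1 holding 57.9% of Juvenile microglia. Adult and Aged microglia shared cluster 2, with 50.8% of the Adult and 76.6% of the Aged cells, while cluster 15 held another 39.7% of the Adult ones. Within cluster 2, pooled over libraries, Csf1r was at 4734.56 CPM in Adult and 3103.72 CPM in Aged cells. The EAE cluster was led by antigen presentation genes (Cd74, H2-Ab1) and the chemokine gene Ccl4 beside microglial genes. PVMs of each condition also came from separate clusters, each with 87.4% to 97.2% of the PVMs of 1 condition.

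The Aged difference from Adult was tested between microglia and PVMs directly, as an interaction with the library as a block. Csf1r moved lower in microglia than in PVMs with age, by -0.55 ± 0.13 (SE) on the log2 scale (adjusted p = 0.0107), and it was 1 of 5 genes of the family tested, where 0.921% of all genes tested were called. This call was lost without a filter on low counts (-0.46, adjusted p = 0.0561), with 12 principal components (-0.37, adjusted p = 0.164) and without Aged 1 (adjusted p = 0.124) or Aged 2 (adjusted p = 0.439). The same difference in EAE was -0.24 (adjusted p = 0.347) and was not called. In Juvenile libraries edgeR called this difference for 0 of 5 members, where 5.57% of all genes tested were called, 1 member had an unadjusted p under 0.05, and DESeq2 called 0.

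**Figure D4:**
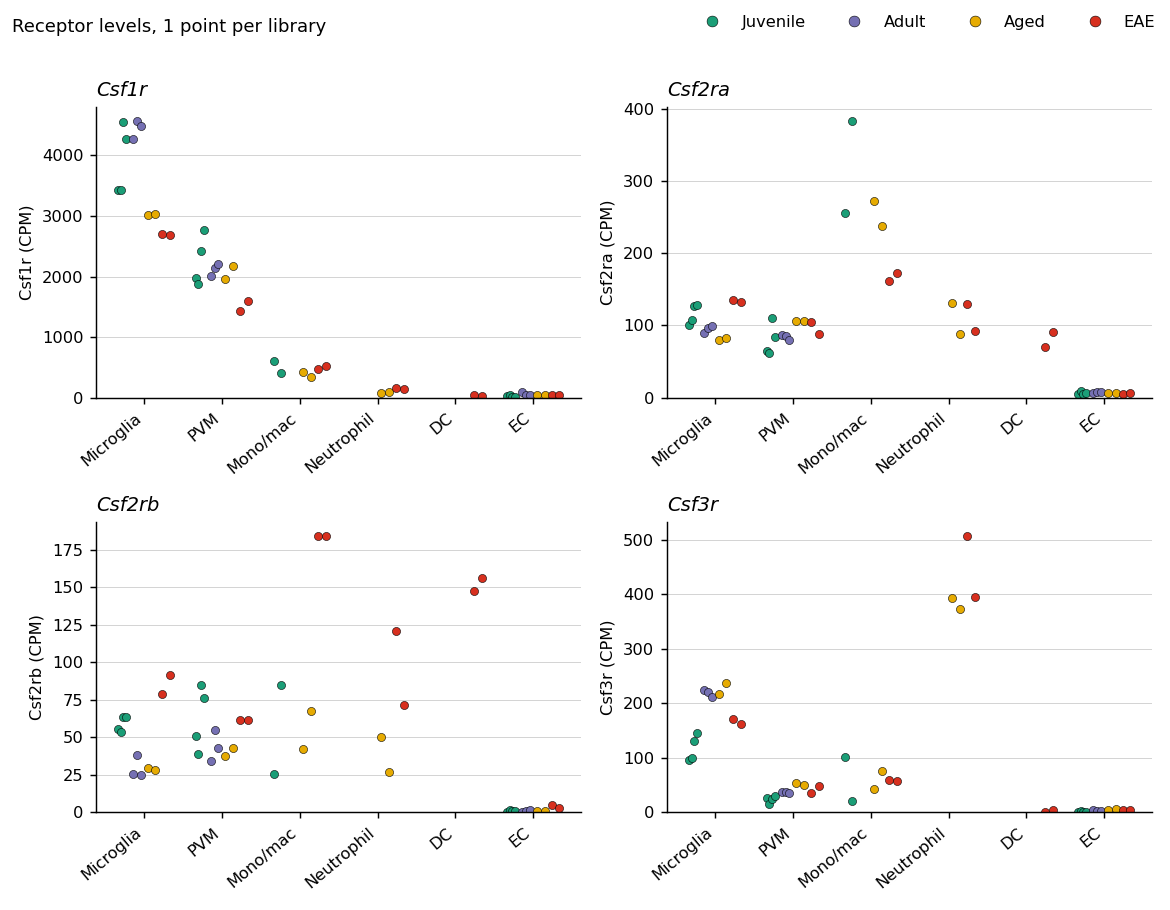
Levels of the CSF receptor genes in CPM in myeloid cell types and in ECs, 1 point per library with at least 10 cells of the type. Csf1r was highest in microglia, Csf2ra in monocytes and macrophages, and Csf3r in neutrophils, each in all libraries that held the type, and ECs lay near 0 for Csf2ra, Csf2rb and Csf3r.

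Outside myeloid cells, Csf1r was far below its level in microglia. The medians over libraries ran from 43.1 CPM in choroid plexus cells and 43.5 CPM in ECs to 130.84 CPM in astrocytes and 142.56 CPM in neurons, the last 2 above the neutrophil median of 121.08 CPM. Pericytes held 297.21 CPM in Adult 1 (123 UMIs in 203 cells) and 259.53 and 251.64 CPM in the EAE libraries, against 21.1 to 136.78 CPM in the other libraries. These values include a cluster of 32 pericytes at 1659.56 CPM, of which 37.5% were called doublets, whereas the largest EAE pericyte clusters held 48.8 and 138.4 CPM. With called doublets left out, the EAE libraries were at 199.77 to 263.43 CPM and the Adult libraries at 50.9 to 154.33 CPM. The highest values of fibroblasts (293.44 CPM in Adult 1) and oligodendrocytes (407.68 CPM in EAE 2) rested on 22 and 13 UMIs. ECs held 17.5 to 39.1 CPM in Juvenile, 91.0, 43.5 and 46.4 CPM in Adult, 39.1 and 47.7 CPM in Aged and 44.7 and 44.9 CPM in EAE libraries. P2ry12, a microglia marker, was at 16.1 to 94.8 CPM in the same ECs, highest in Adult 1 like Csf1r. It was lowest in EAE 1 ECs (16.1 CPM) and at 46.9 and 59.0 CPM in Juvenile 1 and 2, where Csf1r was lower than in EAE. The ratio of Csf1r to P2ry12 UMIs in ECs was 0.662 to 0.775 in Juvenile, 0.961, 1.64 and 1.65 in Adult, 1.06 and 0.997 in Aged and 2.78 and 2.48 in EAE libraries. In microglia it was 0.73 to 0.782 in Juvenile, 1.03, 1.11 and 1.03 in Adult, 0.634 and 0.685 in Aged and 2.03 and 2.11 in EAE libraries, and in PVMs it was 5.22 to 11.8. The ratio was highest in EAE in both cell types, whereas the lowest condition was Juvenile in ECs and Aged in microglia, and in ECs it stayed below that of PVMs in all libraries. The Juvenile value in ECs of -1.19 was called (adjusted p = 0.0303, where 43.5% of all genes tested were called) and was lost in 8 of 19 alternatives, including that without Adult 1 (-0.69, adjusted p = 0.171). In choroid plexus cells, with 31.8 to 114.9 CPM and the highest value again in Adult 1, Csf1r was called lower in EAE (-1.34, adjusted p = 0.0153, 33.3% called) and in Juvenile libraries (-1.23, adjusted p = 0.00537, 56.9% called). Without Adult 1, which leaves 1 Adult sample, the values were -0.83 and -0.75. The EAE call was lost with the replicate block, without Adult 3 and without either EAE library, and the Juvenile call with the replicate block (adjusted p = 0.0712 and 0.0772 with the block). The part of free microglial RNA in these values was not tested.

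The GM-CSF receptor chain Csf2ra was highest in monocytes and macrophages in the 6 libraries with enough of these cells, at 255.15 and 383.15 CPM in Juvenile, 271.52 and 237.19 CPM in Aged and 160.84 and 172.15 CPM in EAE libraries. The Juvenile values came from 29 cells in all and 28 UMIs. Microglia held 100.93, 107.0, 126.4 and 128.37 CPM in Juvenile, 90.2, 96.5 and 99.6 CPM in Adult, 79.9 and 82.2 CPM in Aged and 135.2 and 132.57 CPM in EAE libraries. EAE microglia lay above all other microglia and Aged microglia below them.

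Csf2ra rose in EAE microglia by 0.72 ± 0.15 (SE) on the log2 scale (adjusted p = 0.00305), and this was called in 19 of 19 alternatives. PVMs held 62.1 to 110.34 CPM, and their EAE value of 0.36 was not called (adjusted p = 0.254). Within libraries, monocytes and macrophages exceeded microglia by 1.12 ± 0.24 (SE) (adjusted p = 3.69e-05) and PVMs by 1.19 ± 0.19 (SE) (adjusted p = 4.85e-06). Microglia and PVMs differed by 0.14 (adjusted p = 0.337) and neutrophils and monocytes and macrophages by -0.23 (adjusted p = 0.399), and neither was called. After thinning, 19.2% of EAE microglia in both libraries and 9.25% to 13.7% of Adult microglia had a Csf2ra UMI, against 0.724% to 1.6% of ECs.

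Csf2rb, the shared signalling chain, had the largest log2 fold change of the members tested in EAE microglia. It was at 55.3, 53.3, 63.6 and 63.3 CPM in Juvenile, 25.6, 38.3 and 24.9 CPM in Adult, 29.5 and 28.4 CPM in Aged and 78.6 and 91.8 CPM in EAE microglia. Juvenile and EAE libraries each lay above all Adult and Aged libraries. The log2 fold change was 1.80 ± 0.18 (SE) in EAE (adjusted p = 4.11e-06) and 1.01 ± 0.17 (SE) in Juvenile microglia (adjusted p = 0.000603, where 24.2% of all genes tested were called), and both were called in 19 of 19 alternatives. The Aged value of 0.04 was not called (adjusted p = 0.947). The near-identical Csf2rb2 did not show this order, with at most 22.7 CPM in EAE, 22.1 to 27.4 CPM in Juvenile and 6.22, 26.6 and 19.1 CPM in Adult microglia.

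PVMs held Csf2rb at 50.8, 38.8, 85.1 and 76.1 CPM in Juvenile, 34.5, 54.9 and 43.1 CPM in Adult, 37.5 and 42.9 CPM in Aged and 61.5 and 61.6 CPM in EAE libraries. The EAE value was 0.70 ± 0.27 (SE) with an adjusted p of 0.0743 and was not called, and it was called in 4 of 19 alternatives. The direct test gave a larger EAE change in microglia than in PVMs, by 1.04 ± 0.29 (SE) (adjusted p = 0.015, where 6.02% of all genes tested were called). This difference was lost with DESeq2 (0.99, adjusted p = 0.137), without Adult 3 (adjusted p = 0.0773) and without EAE 2 (adjusted p = 0.126).

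Among named types, Csf2rb was highest in monocytes and macrophages and in DCs of the EAE libraries. Monocytes and macrophages held 184.33 and 183.75 CPM there, against 42.4 and 67.8 CPM in Aged and 25.5 and 85.1 CPM in Juvenile libraries (1 and 4 UMIs). In EAE 91.8% of these cells came from leukocyte cluster 3, whereas leukocyte cluster 22 held 94.6% of the Juvenile and 90.6% of the Aged ones. Within cluster 22, pooled over libraries, Csf2rb was at 113.37 CPM in EAE, 58.1 CPM in Juvenile and 53.0 CPM in Aged cells. DCs held 147.27 and 156.13 CPM and neutrophils 120.63 and 71.4 CPM in EAE, and the lower neutrophil value was below that of EAE microglia. Monocytes and macrophages exceeded microglia by 1.05 (adjusted p = 0.00152) and PVMs by 1.09 (adjusted p = 0.00934), and both calls were lost without EAE 1 and without EAE 2, the second also with DESeq2 (0.62, adjusted p = 0.222). They were 8.62% to 9.07% of kept cells in EAE and 0.154% to 0.212% in Adult libraries, where no library had enough of them for a value. In EAE they held 44.9% to 46.1% of recovered Csf2rb UMIs and microglia 17.8% to 23.5%.

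Csf2rb was also called in ECs in EAE, at a level far below that of myeloid cells. EAE ECs held 4.85 and 3.27 CPM (53 and 35 UMIs), and the other libraries 0.405 to 1.48 CPM. The log2 fold change was 2.03 ± 0.48 (SE) (adjusted p = 0.00835) and was lost without EAE 1 (1.75, adjusted p = 0.0911). In choroid plexus cells EAE libraries held 4.3 and 2.62 CPM (1.55, adjusted p = 0.0273), and this call was lost with DESeq2 (adjusted p = 0.168) and without either EAE library. The myeloid gene Lyz2 was at 190.81 and 177.88 CPM in EAE ECs and at 180.9 CPM in Adult 1 ECs, where Csf2rb was at 0.574 CPM. It was at 78.1 and 66.1 CPM in Adult 2 and 3 ECs and at 146.27 and 166.46 CPM in Aged ECs. Irf8, a transcription factor of myeloid cells, was called higher together with Csf2rb in EAE ECs (1.84 ± 0.37 SE, adjusted p = 0.00528). After thinning, 0.498% to 0.676% of EAE ECs had a Csf2rb UMI, against 21.9% to 22.4% of EAE monocytes and macrophages, and the part of free RNA in the EC value was not tested.

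**Figure D5:**
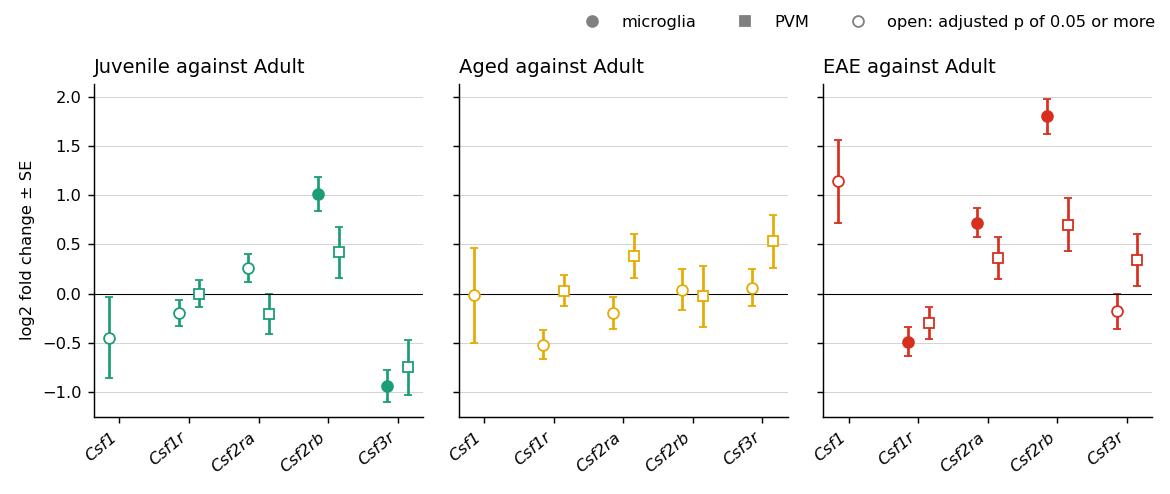
Log2 fold changes with SE of the members in microglia (circles) and PVMs (squares) for Juvenile, Aged and EAE libraries, each against Adult. Filled symbols mark an adjusted p under 0.05, which in EAE holds for Csf1r, Csf2ra and Csf2rb in microglia and for no member in PVMs. Genes without a symbol were not tested in that cell type.

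Csf3r, the G-CSF receptor, was highest in neutrophils, the cells that G-CSF is known for, and next highest in microglia. Neutrophils held 393.22 and 372.95 CPM in Aged and 507.77 and 395.18 CPM in EAE libraries. Microglia held 96.6, 99.2, 131.1 and 145.72 CPM in Juvenile, 224.62, 221.3 and 211.02 CPM in Adult, 216.33 and 237.46 CPM in Aged and 171.56 and 162.71 CPM in EAE libraries. Juvenile microglia lay below all others, EAE microglia came next, and the Adult and Aged ranges overlapped.

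Csf3r was lower in Juvenile than in Adult microglia by -0.94 ± 0.16 (SE) on the log2 scale (adjusted p = 0.000728), called in 19 of 19 alternatives. The EAE value of -0.18 (adjusted p = 0.516) and the Aged value of 0.06 (adjusted p = 0.911) were not called. PVMs held 15.5 to 53.8 CPM and were below microglia within libraries, where microglia exceeded PVMs by 2.10 ± 0.10 (SE) (adjusted p = 5.08e-15). Csf3r thus separated the resident macrophage types more than Csf1r (0.69), Csf2ra (0.14, not called) or Csf2rb (-0.19, adjusted p = 0.23, not called) did, although the differences between genes were not tested. Monocytes and macrophages held 21.3 to 102.06 CPM, below microglia by -1.39 (adjusted p = 8.4e-06) and below neutrophils, which exceeded them by 3.44 ± 0.22 (SE) (adjusted p = 1.94e-07). After thinning, 42.9% to 46.2% of EAE neutrophils and 22.1% to 23.6% of EAE microglia had a Csf3r UMI, against 1.39% to 1.44% of EAE T cells. The median UMIs per cell before thinning were 1810 in these neutrophils and 3094 in these T cells.

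In ECs Csf3r was at 0.654 to 2.01 CPM in Juvenile and 2.44 to 3.73 CPM in Adult libraries (-1.34, adjusted p = 0.0199), and in choroid plexus cells it was at 0.984 to 1.4 CPM and 2.19 to 6.11 CPM (-1.85, adjusted p = 0.000638). Both calls were lost without Adult 1, where the values were -1.20 (adjusted p = 0.0535) and -1.03 (adjusted p = 0.0625). These low levels moved in the same direction as those of Csf1r and of microglial Csf3r in the same libraries, and their origin was not tested.

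Over all cell types, 7 of 35 member results were called in EAE against Adult, where 18.7% of all results were called, and 8 of 35 in Juvenile against Adult, where 28.5% were called. With edgeR 0 of 34 were called in Aged against Adult, where 1.87% of all results were called; 6 had an unadjusted p under 0.05, and DESeq2 also called 0. Csf1r in Aged natural killer (NK) cells was not among these, because the Adult NK cells formed only 1 sample. It was at 206.15 and 245.06 CPM in Aged (11 and 10 UMIs) and at 0 UMIs in both Adult libraries, where 3 counts would be 74.4 and 58.9 CPM. Alternatives that allowed a group of 1 sample, or that counted the near-identical Adult 2 and 3 as separate samples, called it, but these rest on an unreplicated group at 0 and no difference is read from them. Csf1r in Aged microglia was called with all 11 libraries separate (-0.52, adjusted p = 0.0392), with the replicate block (-0.42, adjusted p = 0.0364) and with no filter on low counts (-0.51, adjusted p = 0.0109). Of 70 comparisons between cell types within libraries, 51 were called, against 55.1% of all genes in the same comparisons. The share between cell types was above that of all genes, but the members were chosen with earlier results known and no test of the set was made.

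Of the other genes of the pathway, a list of ligands, receptors, transcription factors and signalling genes, 8 of 25 tested were called higher and 0 lower in EAE microglia (32% against 23.8% of all genes). These included Cebpb (1.88, adjusted p = 1.83e-06), a transcription factor gene, and Socs3 (1.54, adjusted p = 1.55e-05), a feedback inhibitor of cytokine signalling. Another was Il3ra (1.53, adjusted p = 0.00708), the IL-3 receptor chain that pairs with CSF2RB. In EAE PVMs 3 of 21 were higher and 0 lower (14.3% against 20.1%), namely Il3ra (1.33, adjusted p = 0.00687), the adaptor Grb2 (0.61, adjusted p = 0.023) and Tyrobp (0.53, adjusted p = 0.00563), a signalling adaptor of myeloid receptors.

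In Juvenile microglia 2 of 25 listed genes were higher and 5 lower (28% against 24.2%). Il3ra (2.22, adjusted p = 0.000185) and Ptprz1 (2.28, adjusted p = 0.0106), a phosphatase that also binds IL34, were higher. Ptprz1 was at only 5.42 to 10.4 CPM in Juvenile microglia, with 4.57 to 7.85 CPM in ECs and 7.77 to 13.3 CPM in PVMs. Astrocytes of the same libraries held 869.69 to 1043.73 CPM, and the part of free RNA in the microglial value was not tested. Those that were lower included Cebpa (-0.84, adjusted p = 0.0204), a transcription factor of myeloid development, and Socs3 (-0.75, adjusted p = 0.00217). In EAE ECs 8 of 28 were higher and 2 lower (35.7% against 27.5%). The largest was Csf3, the gene of the CSF3R ligand G-CSF, with 40 and 27 UMIs (3.66 and 2.52 CPM) in EAE ECs and at most 4 UMIs in any other library (5.65 ± 1.15 SE, adjusted p = 0.00386). It was followed by Irf8, given above, and Cebpb (1.52, adjusted p = 0.0297). Cebpb was not confined to myeloid cells, with 2300.4 and 3623.47 CPM in EAE fibroblasts against 968.86 and 1278.53 CPM in EAE microglia. Sdc1, a proteoglycan that binds IL34, was lower (-1.26, adjusted p = 0.0101), as was the kinase gene Lyn (-0.60, adjusted p = 0.00124).

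For each member, the genes whose levels were most alike over 151 sums of cell type and library, among 12794 genes, are given as a description, since sums of 1 library share its depth and free RNA. They were Tbx18 (Pearson's r of log2(CPM + 1) 0.916), Tfap2a (0.887) and Npy1r (0.886) for Il34, and Lgmn (0.871), C1qc (0.871) and C1qb (0.839) for Csf1r. They were Osm (0.809), Clec7a (0.804) and Spi1 (0.803) for Csf2rb, and Siglece (0.774), Osm (0.76) and Igsf6 (0.759) for Csf3r. For Csf2ra they were Lst1 (0.702), Ebi3 (0.699) and Rab32 (0.693). Csf1 had the weakest likeness, with R74862 (0.613), Cd81 (0.59) and Phactr1 (0.584).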

How the data were processed

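By the submitters' processing notes, the authors processed the reads with bcl2fastq 2.19.1.403, UMI-tools 0.5.3, STAR 2.5.3a (mm10) and featureCounts 1.6.1, whereas the study's methods name other versions of the last 3, and which of these made the files is not given. The authors deposited whole UMI counts per gene and cell barcode for each library, without normalization. No values were changed by the authors after counting, as far as the sources used here say; the count files still held barcodes that the study's cell filters remove. How multi-mapping reads were treated is not given in the sources used here. No other unit was used here.

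Kept barcodes had over 500 genes, under 6000 genes and a mitochondrial share under 25%. They were clustered in Seurat 5.3.0 (R 4.3.3; scale factor 10000, 2000 variable genes, 30 principal components, resolution 1, with further rounds for leukocytes and mural cells) and ECs within each condition (12 components, resolution 0.5), without integration, leaving out the 6 genes and the pathway list. Clusters were named from marker lists by a score, and some were set to unnamed after their leading genes had been seen. Doublets were called with Scrublet in scanpy 1.11.5 under Python 3.11.15, which marked 818 cells (1.62%), of which only 2 were in Aged 2. They were kept, and left out in an alternative.

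UMIs were summed per cell type and library with at least 10 cells, and Adult 2 and Adult 3 were summed as 1 sample. The test between conditions was the robust quasi-likelihood test of edgeR 4.0.16, fitted over all conditions together after filterByExpr and TMM scaling, with Benjamini-Hochberg adjustment over all genes tested. Cell types, and the difference of condition effects between microglia and PVMs, were compared with the library as a block. Positive log2 values mean higher in the condition against Adult or in the cell type named first. SE is the log2 fold change divided by the square root of the F statistic. Fold changes use TMM-scaled libraries, while CPM values use plain totals, so their ratios differ somewhat. For shares, each cell was thinned to 1500 UMIs and shallower cells were left out. UMIs of 1 library cover counting error only. The scripts were tested on simulated data. Alternatives were DESeq2 1.42.0, other size factors, no filter on low counts, other clustering, no doublets, separate or further summed libraries, a replicate block and leaving out each library. Leaving out Adult 1, an Aged or an EAE library leaves 1 sample in that group, whose spread is then taken from the other groups.

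All members are named in each cell type, and of the pathway list up to 3 called genes per direction, ranked by log2 fold change, of which 1 gene is not reported here. Of the like genes, the 3 with the highest r among genes reaching 50 CPM in at least 1 sum are named. The members and lists were chosen with earlier results of these data known. Il3 was on the pathway list but not in the files' gene column. Gene positions are from GENCODE M21 (GRCm38).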

Additional observations from a re-analysis of the deposited data

Results flagged for a closer look

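Of 66 groups of 4 Juvenile libraries examined (1 member in 1 cell type each), 8 held a library far from the other 3. Chance gives about 1 in 20 for independent libraries with even spread, which does not hold for near-identical pairs and counts this low, so the number 8 is not read against it. For Csf1, neurons of Juvenile 2 were at 56.2 CPM (5 UMIs), with the others at 13.8 to 18.0 CPM (2 to 4 UMIs). For Il34, ECs of Juvenile 2 were at 1.41 CPM (7 UMIs, others 0.405 to 0.571) and PVMs of Juvenile 4 at 2.54 CPM (1 UMI, others 0). For Csf2ra, neurons of Juvenile 3 were at 27.1 CPM (6 UMIs, others 33.7 to 34.6 with 3 to 6 UMIs). For Csf2rb, choroid plexus cells of Juvenile 4 were at 1.08 CPM (7 UMIs, others 0.468 to 0.549), neurons of Juvenile 4 at 5.7 CPM (1 UMI) and SMCs of Juvenile 1 at 3.47 CPM (2 UMIs, others 0 in both). For Csf3r, pericytes of Juvenile 1 were at 2.79 CPM (1 UMI, others 0). Values of 1 or 2 UMIs are under the 3 counts that a count of 0 allows and show no difference between libraries.

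The members whose condition effect differed between microglia and PVMs in a direct test were Csf1r with age, with a difference of -0.55 on the log2 scale (edgeR, adjusted p = 0.0107), and Csf2rb in EAE, with a difference of 1.04 (adjusted p = 0.015). Both were lost in some alternatives, as given with the results.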

How the results depend on the processing

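Of 189 member results tested, 68 were called, and 48 of these were called in each alternative that gave a value. Another 20 were lost in at least 1 alternative, 14 uncalled results were called in at least 1, and 0 called results changed sign. Csf1r in Juvenile oligodendrocytes, not called, went from 0.77 to -0.09 with doublets left out. Of the 107 results called nowhere, 50 changed sign somewhere. The number of members called with age moved from 0 to 2 with all 11 libraries separate and to 3 with no filter on low counts. The Juvenile count moved from 8 to 5 with 12 principal components and resolution 0.5, which gave no value for T cells, NK cells, pericytes, SMCs and DCs. In the comparison of microglia with PVMs, the Aged count of 1 moved to 0 with no filter and with 12 principal components, and the EAE count of 1 moved to 0 with DESeq2. Csf2ra was highest in monocytes and macrophages in 11 of 11 libraries with 12 principal components, against 6 of 6. The causes of these changes were not tested.

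Leaving out 1 library at a time, where a lone library is assumed to vary like the other groups, gave 1 to 2 calls in Aged, 4 to 9 in EAE, 5 to 9 in Juvenile libraries and 41 to 52 between cell types. Over the results also tested with all libraries, these were 0 to 1 in Aged, 3 to 8 in EAE and 5 to 9 in Juvenile libraries, since leaving out a library also admitted NK cells with 1 Adult sample, where Csf1r was called in 11 fits in Aged and 9 in EAE against a single sample at 0, from which nothing is read. The lowest EAE count came without EAE 1 and without EAE 2, and the lowest Juvenile count without Adult 1. In the comparison of microglia with PVMs it gave 0 to 1 calls in Aged and 0 to 1 in EAE. With the replicate block the Aged count was 1, the EAE count 8 and the Juvenile count 8. Same-numbered libraries did not deviate together (correlations of -0.199 to 0.0899). The Aged libraries, and the EAE libraries, deviate as mirror images and differ little beyond sampling noise, so a pairing by number is not excluded.

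Shares of cells depend on the depth to which cells were thinned. At 1000 UMIs and without thinning, the share was 4.73% and 12.9% for Csf1 in EAE ECs (7.0% at 1500), 97.6% and 99.5% for Csf1r in Adult microglia (99.2%), 14.7% and 58.6% for Csf2ra (21.3%) and 15.0% and 55.2% for Csf2rb (22.1%) in EAE monocytes and macrophages. For Csf3r in EAE neutrophils it was 60.4% without thinning (44.5%).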

Other observations

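Csf2, the gene of the GM-CSF that CSF2RA and CSF2RB bind, was found mainly in lymphoid cells. T cells of the EAE libraries held 157 and 146 UMIs (64.5 and 63.9 CPM), and T cells of the Aged libraries 21 and 1 UMIs (59.2 and 3.07 CPM). A small unnamed cluster led by Gata3, Csf2, Areg and Il13 held 1203.34 CPM in Adult 2 (55 UMIs in 10 cells) and 684.39 CPM in Aged 2 (32 UMIs in 16 cells). These values rest on few cells and were not compared between conditions.

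Some unnamed leukocyte clusters carried the receptors. A cluster led by MHC class II genes, Il1b and Plac8 held Csf2rb at 57.2 to 405.26 CPM and Csf2ra at 113.3 to 197.6 CPM over 8 libraries. A cluster led by MHC class II genes, Il1b and Cxcl13 held Csf1r at 877.63 to 1839.3 CPM and Csf2ra at 131.93 to 353.07 CPM over 7 libraries.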
